A study of Homo sapiens with 4 samples.

Results

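The mitochondrial ribosomal proteins were examined in leukemia cells with and without a knockdown of LDB1 (LIM domain-binding protein 1), an adaptor protein that joins transcription factors such as LMO2 and GATA1 into 1 complex. Members were the genes whose symbol is MRPS or MRPL followed by a number and, in some, a letter A to C. There were 78 members among the 28412 genes of the table, 29 named for the small subunit (MRPS) and 49 for the large subunit (MRPL). Pseudogenes and antisense genes with similar symbols were left out.

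RNA-seq was performed on 4 libraries of NB4, a human acute promyelocytic leukemia line. The controls were 2 libraries of cells with the vector sh-NC, and the knockdown was 2 libraries of cells with a vector for an shRNA to LDB1, named sh-LDB1. All 4 came from this 1 line, and no other treatment is given in the labels. Several shRNAs were designed in the study and the labels do not name the sequenced one, so a response to LDB1 and an effect of that 1 vector cannot be told apart. The labels do not say whether the replicates came from separate cultures, so p-values measure only the spread between these libraries.

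The labelled cell type was compared with its markers. The promyelocytic markers chosen were MPO, ELANE, PRTN3, AZU1, CTSG, CD33, ANPEP, CEBPE and LYZ, and 7 of them had a value here. Their summed level was 11.6 and 10.7 FPKM in the controls and 32.0 and 29.4 FPKM after the knockdown. FPKM is fragments counted on a gene, scaled to its length and to the depth of the library. The median of the 7 was 1.29 and 1.18 FPKM in the controls and 1.22 and 1.45 FPKM after the knockdown. ELANE, the neutrophil elastase gene, was listed at 0 in 3 of 4 libraries, and ANPEP (CD13) was at or below 0.111 FPKM in all 4. Of the 7, 5 averaged enough to be tested as described below. Of these, 3 were higher after the knockdown and 2 had no call. Their log2 fold changes ran from -0.58 to 1.59, with a median of 0.94. The 13 erythroid markers summed to 3971.9 and 4126.9 FPKM in the controls and 386.8 and 351.1 FPKM after the knockdown. All 12 of them that were tested fell by more than the fold threshold, HBZ (zeta globin) from 1543 and 1600 FPKM to 58.9 and 61.3 FPKM. The labelled promyelocytic identity was thus not borne out by the levels of these markers, and the cells are called by their label only. A short tandem repeat profile reported in the study matched NB4 exactly, but the labels do not link it to the sequenced cells. The erythroid markers fell in the same libraries as the ribosomal protein genes described next, and their part in those results was not tested.

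The mitochondrial ribosome makes the few proteins encoded by mitochondrial DNA, all of them subunits of the respiratory chain and ATP synthase. Its rRNAs are transcribed from mitochondrial DNA, whereas all of its proteins are encoded in the nucleus, translated in the cytosol and imported. The small subunit binds the mRNA and reads its codons, and the large subunit joins the amino acids and releases the chain near the inner membrane. Some of the proteins have a homolog in the bacterial ribosome, and others are found only in mitochondria.

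The promoters of the members with the largest changes are shown first, since these genes are the ones the results turn on. Sequences are from RefSeq (GRCh38.p14), which had a promoter for 69 of the 78 members. Each line holds the 120 bases before the first listed transcription start, on the strand of the gene. Capitals mark matches to the binding motif of NRF1 (GCGCA and GCGC with 1 base of any kind between them), of ETS factors such as GABP (CCGGAAG) or of YY1 (AAGATGGC), searched on both strands. These factors are known regulators of nuclear genes for mitochondrial proteins. MRPS25, MRPS9 and MRPL47 were among the largest falls, and MRPS6, MRPL17 and MRPL55 were the 3 largest rises.
MRPS25 (chr3:15065316-15065435, minus strand): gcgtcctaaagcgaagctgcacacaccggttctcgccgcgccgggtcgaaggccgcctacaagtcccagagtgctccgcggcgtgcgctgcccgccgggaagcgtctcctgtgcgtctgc
MRPS9 (chr2:105037949-105038068, plus strand): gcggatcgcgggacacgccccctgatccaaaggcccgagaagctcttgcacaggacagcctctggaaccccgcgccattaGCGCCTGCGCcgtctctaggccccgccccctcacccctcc
MRPL47 (chr3:179604639-179604758, minus strand): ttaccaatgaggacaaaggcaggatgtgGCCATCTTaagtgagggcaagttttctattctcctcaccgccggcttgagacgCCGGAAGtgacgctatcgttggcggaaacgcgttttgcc
MRPS6 (chr21:34073458-34073577, plus strand): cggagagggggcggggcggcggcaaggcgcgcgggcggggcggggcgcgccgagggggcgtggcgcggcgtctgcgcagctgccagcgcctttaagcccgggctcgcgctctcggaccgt
MRPL17 (chr11:6683341-6683460, minus strand): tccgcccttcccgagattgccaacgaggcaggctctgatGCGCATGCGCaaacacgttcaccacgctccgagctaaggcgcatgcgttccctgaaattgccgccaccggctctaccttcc
MRPL55 (chr1:228109300-228109419, minus strand): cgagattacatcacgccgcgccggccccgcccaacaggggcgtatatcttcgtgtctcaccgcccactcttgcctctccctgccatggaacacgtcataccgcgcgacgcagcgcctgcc
The capitals are an NRF1 match in MRPS9 and in MRPL17, and a YY1 match followed by an ETS match in MRPL47. MRPS25, MRPS6 and MRPL55 held none of these letters in the stretch shown. By the gene bounds given below, which are from GENCODE, the stretch of MRPS6 lies wholly inside the gene. Those of MRPS25, MRPL47 and MRPL55 reach a short way into it.

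To learn whether the knockdown changed the members as a group, the levels of each gene were compared between sh-LDB1 and sh-NC with limma on log2(FPKM + 1), over the 13300 genes that averaged 1 FPKM or more. Of the 78 members, 76 were tested. A gene was called at a Benjamini-Hochberg adjusted p below 0.05, and fold changes are on the log2(FPKM + 1) scale. Results showed that 50 members were lower in sh-LDB1, 8 were higher and 18 did not pass the test. Over all genes tested, 37.4% were lower and 29.9% were higher, so the members were lower more often and higher less often than genes at large. The share lower was greater among genes of higher level, at 47.4% of the 7506 genes that averaged 5 FPKM or more. Their median log2 fold change was -0.15, and the median of the 69 members among them differed from it by -0.32. With 2 libraries a group, the smallest p of an exact permutation test for 1 gene is 0.333, so the calls rest on the spread that limma shares across genes.

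The change was moderate in most members. The median log2 fold change was -0.43, with quartiles of -0.71 and -0.07, beside a median of -0.08 over all genes tested. The extremes were -1.66 for MRPS25 and 1.31 for MRPS6. MRPS25, MRPL35, MRPS9, MRPL47 and MRPL39 were the 5 members that passed the threshold of a fold below 0.5, where 10.3% of all genes did, and 1 passed a fold above 2, where 9.5% did. The 50 members called lower kept between 29.1% and 87.3% of their control level.

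The libraries of the groups seldom overlapped, in the members as in all genes tested. Both sh-LDB1 libraries lay below both sh-NC libraries in 54 tested members (46.3% of all genes tested) and above them in 13 (38.3% of all genes tested). The groups overlapped in the other 9, beside 2047 of the 13300 genes tested. The summed level of all 78 members was 2450.9 and 2337.1 FPKM in the controls and 1830.5 and 1849.6 FPKM after the knockdown, which was 76.9% of control. In the same libraries the summed level of all genes tested was 88.3% of control. The median member stood at 26.1 and 24.8 FPKM in the controls and 17.2 and 17.6 FPKM after the knockdown. A level of 50 FPKM or more was reached by 14 and 13 members in the control libraries and by 6 and 7 members in the knockdown libraries. In bulk RNA, fewer cells that express a gene and less RNA per cell cannot be told apart.

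**Figure D1:**
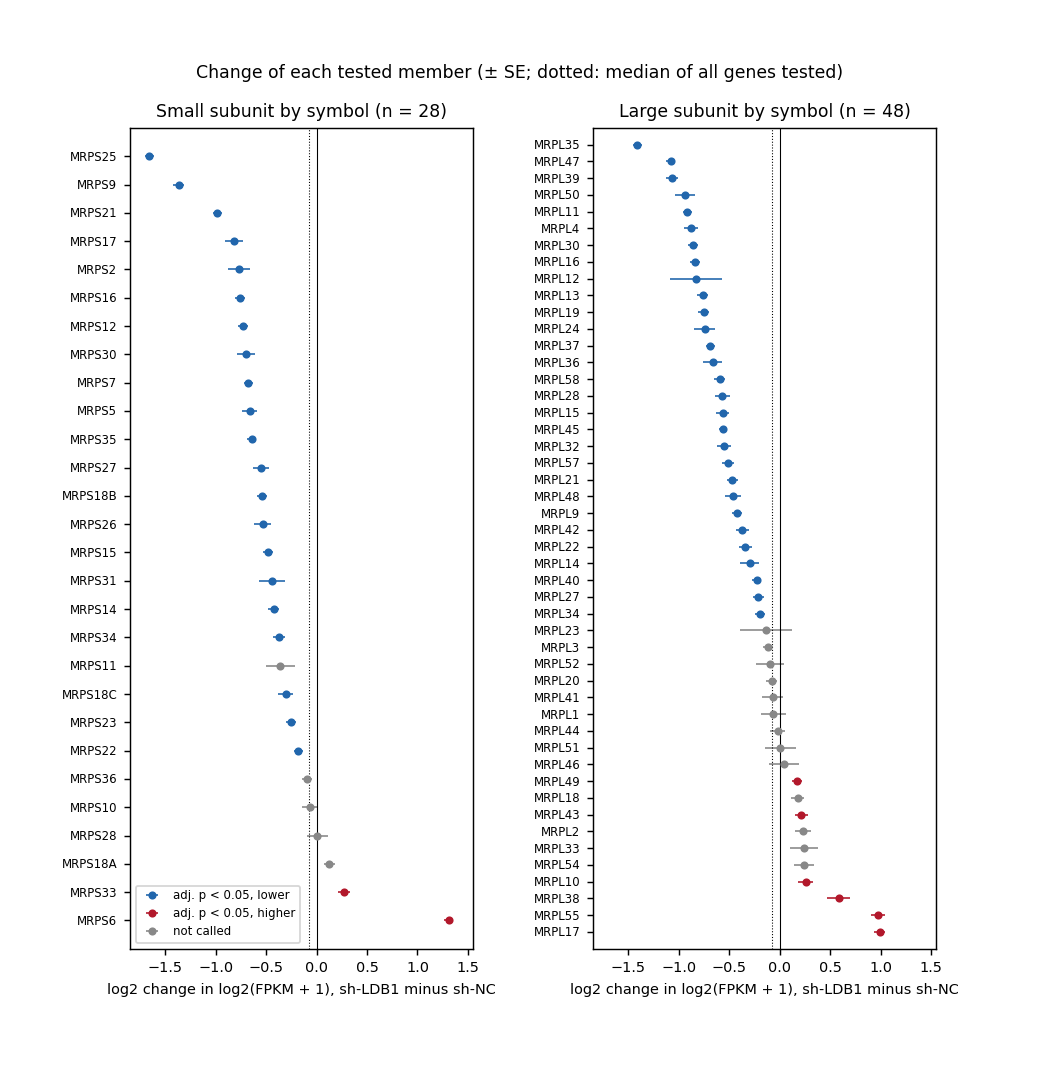
The log2 change in log2(FPKM + 1), sh-LDB1 minus sh-NC, is plotted for each of the 76 tested members with its standard error, the 28 small subunit members on the left and the 48 large subunit members on the right. Blue points are members called lower, red points members called higher and grey points members with no call, and the dotted line is the median over all genes at -0.08. Most points lie left of that line, and MRPS6, MRPL17 and MRPL55 lie apart on the right.

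Leaving out 1 library kept the direction of the counts, with 41 to 48 members lower and 4 to 10 higher. The number of higher members dropped to 4 without sh-NC replicate 2, without sh-LDB1 replicate 1 and without sh-LDB1 replicate 2. Those fits assume that the library left alone varies like the other group. The split of the calls depended on how the libraries were scaled. When each library was rescaled to the same summed FPKM, the median of all genes moved up by 0.147 on the log2 scale, and with a median of ratios over expressed genes by 0.107. Under these scalings 40 members were lower and 13 higher, and 41 lower and 12 higher. The same settings gave 4029 genes lower and 4925 higher, and 4300 lower and 4651 higher, over all genes, where the deposited scaling gave 4978 and 3983. Relative to the median of all genes the members moved little, with a difference of -0.36 in the deposited scaling, -0.34 at equal sums and -0.35 with the median of ratios.

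The small and the large subunit were then set side by side. Of 28 tested small subunit members, 21 were lower and 2 higher, with a median log2 fold change of -0.51. Of 48 tested large subunit members, 29 were lower and 6 higher, with a median of -0.35. The summed level of the small subunit was 906.3 and 900.2 FPKM in the controls and 623.3 and 652.9 FPKM after the knockdown (70.6% of control), and that of the large subunit was 1544.7 and 1436.9 FPKM and then 1207.2 and 1196.7 FPKM (80.6% of control). Each sum was lower in both knockdown libraries than in both controls, beside a sum over all genes tested of 88.3% of control. The difference between the subunits was not tested, because members are not replicates.

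Some symbols do not match the place of the protein. MRPS18A and MRPS30 sit in the large subunit of the human mitochondrial ribosome, and MRPS36 belongs to the 2-oxoglutarate dehydrogenase complex. With the proteins sorted by structure, 20 of 25 small subunit members were lower and 2 higher, with a median of -0.53, and 30 of 50 large subunit members were lower and 6 higher, with a median of -0.35. At equal summed FPKM these counts were 16 lower and 2 higher in the small subunit and 24 lower and 11 higher in the large subunit, with medians of -0.36 and -0.20.

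By ancestry, 32 of 47 tested members with a bacterial homolog were lower and 4 higher, with a median of -0.48, and 18 of 29 members found only in mitochondria were lower and 4 higher, with a median of -0.37. With the subunits taken by symbol, the large subunit medians were -0.45 for 30 members with a bacterial homolog and -0.16 for 18 found only in mitochondria. Within the small subunit by symbol they were -0.54 for 17 and -0.44 for 11. The 18 large subunit members found only in mitochondria held 9 called lower and 3 called higher, and their median was 0.0045 at equal summed FPKM and -0.04 with the median of ratios. At equal sums the counts were 26 lower and 8 higher with a bacterial homolog, and 14 lower and 5 higher without one.

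The small subunit held the largest change of all. MRPS25 (ENSG00000131368; chromosome 3, 15009611 to 15065339, minus strand), a small subunit protein found only in mitochondria, was at 27.4 and 26.6 FPKM in the controls and 7.78 and 7.93 FPKM after the knockdown. The mean fell from 27 ± 0.556 to 7.86 ± 0.106 FPKM (SD, n = 2), a log2 fold change of -1.66 ± 0.0466 (SE, limma adjusted p = 8.3e-05). The spread within each group was a small part of this difference. NR2C2, on the opposite strand, covers 39.1% of its annotated exon bases and was at 6.46 and 7.03 FPKM in the controls and 5.98 and 5.58 FPKM after the knockdown, and the use of strand in the counting was not stated.

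MRPS9 (ENSG00000135972; chromosome 2, 105038069 to 105099960, plus strand), homolog of bacterial ribosomal protein S9, was at 33.5 and 31.7 FPKM in the controls and 12.2 and 11.8 FPKM after the knockdown (log2 fold change -1.37 ± 0.0512, SE, limma adjusted p = 1.2e-04). MRPS21, homolog of S21, was at 53.2 and 51.2 FPKM and then at 25.5 and 26.2 FPKM (-0.98). Its log2 change on this scale stopped just short of the threshold for the fold. MRPS17, homolog of S17, was at 3.09 and 3.02 FPKM and then at 1.30 and 1.29 FPKM (-0.82). MRPS17 shares 25% of its exon bases with other genes of the same strand. A gene that is not in the table covers 22.4%, and NIPSNAP2 covers 2.57%. NIPSNAP2 fell from 10.9 and 12 FPKM to 2.39 and 2.48 FPKM. The part of shared reads in the change of MRPS17 was not tested.

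In the large subunit, MRPL35 (ENSG00000132313; chromosome 2, 86199355 to 86213790, plus strand), homolog of bacterial L35, was at 26.4 and 26.5 FPKM in the controls and 9.57 and 9.11 FPKM after the knockdown (log2 fold change -1.41 ± 0.0483, SE, limma adjusted p = 1.1e-04). MRPL47 (ENSG00000136522; chromosome 3, 179588285 to 179604649, minus strand), homolog of L29 at the exit of the peptide tunnel, was at 41.2 and 40.9 FPKM and then at 19.2 and 18.5 FPKM (-1.08). These groups lay far apart, with less than 1 FPKM between the libraries of a group.

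MRPL39 (ENSG00000154719; chromosome 21, 25585656 to 25607517, minus strand), a protein found only in mitochondria and related to threonyl-tRNA synthetases, was at 38.1 and 36.3 FPKM in the controls and 17.9 and 16.5 FPKM after the knockdown (log2 fold change -1.07). MRPL50, also found only in mitochondria, was at 10.8 and 12.3 FPKM and then at 5.11 and 5.97 FPKM (-0.94). MRPL35 and MRPL39 share no annotated exon base with another gene.

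MRPS6 was the only member higher by more than the fold threshold in the deposited scaling, and MRPL17 and MRPL55 joined it under both other scalings. This gene (ENSG00000243927; chromosome 21, 34073224 to 34143034, plus strand), homolog of bacterial S6, was at 10.2 and 10.4 FPKM in the controls and 26.4 and 27.5 FPKM after the knockdown. Its mean rose from 10.3 ± 0.187 to 27 ± 0.751 FPKM (SD, n = 2), which was 261.8% of control, with a log2 fold change of 1.31 ± 0.0480 (SE, limma adjusted p = 1.2e-04). SLC5A3, a myo-inositol transporter gene on the same strand that shares exon bases with it, was at 8.28 and 8.48 FPKM in the controls and 14.2 and 12.8 FPKM after the knockdown. The shared bases are 6.2% of the exon bases of MRPS6, and their part in the rise was not tested.

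Other members were higher too. MRPL17 (ENSG00000158042; chromosome 11, 6680385 to 6683340, minus strand), homolog of L17, was at 13.7 and 13.4 FPKM in the controls and 28.8 and 27.1 FPKM after the knockdown (log2 fold change 0.99). MRPL55 (ENSG00000162910; chromosome 1, 228106679 to 228109312, minus strand), homolog of L31, was at 28.1 and 25.5 FPKM and then at 51.7 and 55.8 FPKM (0.98). Both had a mean in sh-LDB1 above 200% of control, 206.2% for MRPL17 and 200.4% for MRPL55, and just missed the threshold on the scale with 1 FPKM added.

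MRPL38, found only in mitochondria, was low throughout, at 1.42 and 1.17 FPKM in the controls and 2.35 and 2.53 FPKM after the knockdown (log2 fold change 0.59). The rise of MRPS33 was small, from 5.03 and 4.90 FPKM to 6.04 and 6.34 FPKM (0.27). MRPL43 (0.21) and MRPL49 (0.18) made up the count with MRPL10. MRPS33 lost its call without sh-NC replicate 2 (0.25), sh-LDB1 replicate 1 (0.30) or sh-LDB1 replicate 2 (0.24), and MRPL38 without sh-LDB1 replicate 2 (0.55). MRPL43 lost its call when any 1 library was left out (0.17 to 0.26), and MRPL49 without each library but sh-NC replicate 1 (0.14 to 0.21). Of these 8 higher members, only MRPS6, MRPL17 and MRPL55 kept an adjusted p below 0.05 under every alternative test of a change from 0 and with each library left out. Under limma treat, which tests for a change beyond a fold of 2, MRPS6 alone of them kept its call.

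**Figure D2:**
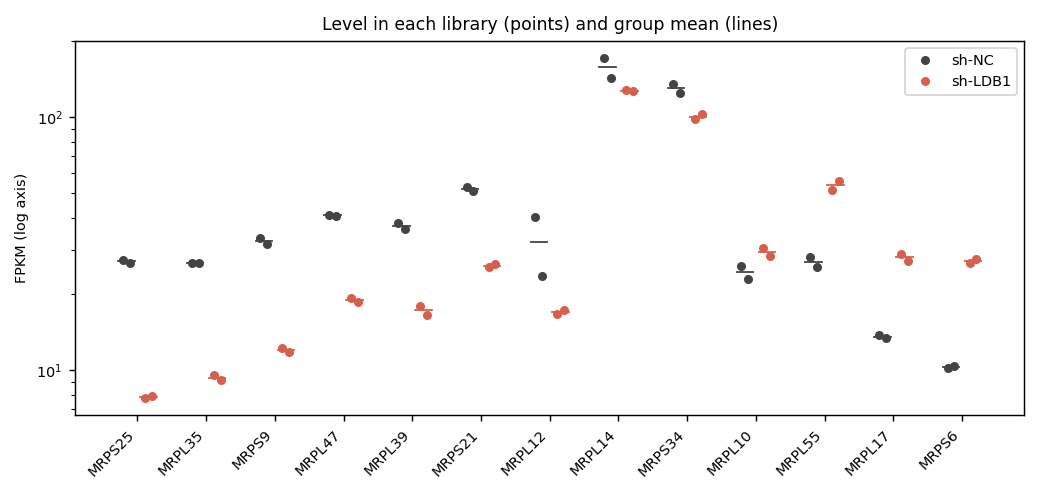
FPKM on a log axis is plotted for 13 members, with 1 point per library, sh-NC in black and sh-LDB1 in red, and a line at the mean of each group. The 2 sh-NC points of MRPL12 stand at 40.5 and 23.5 FPKM, far wider apart than those of MRPS25 or MRPS6, whose groups are separated by more than their spread.

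The members of highest level are given next. MRPL14, homolog of L14 at the subunit interface, was the most abundant, at 172.0 and 142.8 FPKM in the controls and 128.2 and 126.6 FPKM after the knockdown (log2 fold change -0.30, limma adjusted p = 0.049). Its call was lost at equal sums (-0.13), with the median of ratios (-0.17), with no filter, with eBayes without a trend, with a pseudocount of 0.01, and without sh-LDB1 replicate 1 (-0.31, adjusted p = 0.155) or replicate 2 (-0.29, adjusted p = 0.174). MRPS34, a protein of the small subunit found only in mitochondria, was at 136.0 and 125.1 FPKM and then at 98.4 and 102.8 FPKM (-0.37). MRPL37 was at 90.6 and 87.2 FPKM and then at 53.9 and 55.6 FPKM (-0.69).

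MRPL15, homolog of L15, was at 63.6 and 70.9 FPKM in the controls and 44.6 and 45.7 FPKM after the knockdown (log2 fold change -0.56). MRPS35 was at 67.0 and 70.1 FPKM and then at 43.4 and 43.6 FPKM (-0.64). In each of these 5 abundant members both sh-LDB1 libraries lay below both sh-NC libraries. The order at the top was the same in both groups for MRPL14 and MRPS34, which were the first and the second of all members by mean level.

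The 3 paralogs that descend from bacterial S18 did not move together. MRPS18B, the small subunit paralog of highest level, was at 80.5 and 85.3 FPKM in the controls and 55.5 and 57.9 FPKM after the knockdown (log2 fold change -0.54, limma adjusted p = 0.001). MRPS18C was at 3.37 and 3.32 FPKM and then at 2.50 and 2.53 FPKM (-0.31, limma adjusted p = 0.021). MRPS18A, which sits in the large subunit, was at 27.2 and 26.3 FPKM and then at 28.1 and 30.5 FPKM (0.13, limma adjusted p = 0.114) and had no call in the deposited scaling, but was called higher at equal sums (0.29) and with the median of ratios (0.25). The call of MRPS18C was lost under both of these scalings (-0.18 and -0.21), with no filter, and when any 1 library was left out (-0.31 to -0.30). The differences between the paralogs were not tested, and ABRAXAS1 on the opposite strand covers 40.2% of the exon bases of MRPS18C.

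The stalk of the large subunit recruits translation factors. MRPL11, at its base, was at 24.1 and 24.0 FPKM in the controls and 12.2 and 12.4 FPKM after the knockdown (log2 fold change -0.92). MRPL10, which anchors the stalk, went the other way, at 25.8 and 22.9 FPKM and then 30.4 and 28.2 FPKM (0.26, limma adjusted p = 0.039). MRPL12, the stalk protein that also binds the mitochondrial RNA polymerase, was at 40.5 and 23.5 FPKM and then at 16.6 and 17.3 FPKM (-0.83, limma adjusted p = 0.043). Its groups did not overlap, but its standard error of 0.259 was the largest of any member, and the call was lost under both other scalings (-0.66 and -0.71), with no filter, with eBayes without a trend, and without sh-LDB1 replicate 1 (-0.80) or replicate 2 (-0.86). MRPL10 lost its call without sh-NC replicate 2 (0.17), sh-LDB1 replicate 1 (0.20) or sh-LDB1 replicate 2 (0.31). A gene of the same strand that is not in the table covers 69.5% of the exon bases of MRPL12.

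At other known sites the changes were mostly falls. MRPS12, at the decoding site of the small subunit, was at 33.9 and 36 FPKM in the controls and 20.3 and 21.0 FPKM after the knockdown (log2 fold change -0.73). MRPS27, which has pentatricopeptide repeats that bind RNA, was at 20.1 and 22.5 FPKM and then at 14.9 and 13.6 FPKM (-0.55). MRPL45, which tethers the ribosome to the inner membrane, was at 61.9 and 59.7 FPKM and then at 41.0 and 40.9 FPKM (-0.56). In all 3 genes both knockdown libraries lay below both controls.

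MRPL58, a release factor homolog that frees stalled ribosomes, was at 46.9 and 43.5 FPKM in the controls and 29.7 and 29.4 FPKM after the knockdown (log2 fold change -0.59). MRPS30, a large subunit protein despite its name, was at 16.9 and 20.0 FPKM and then at 11.1 and 10.8 FPKM (-0.70). Other members of this kind had no call. MRPL41, near the tunnel exit, was at 50.4 and 41.4 FPKM and then at 41.9 and 45.2 FPKM. MRPL44, which has a fold like RNase III, was at 16 and 15.9 FPKM and then at 14.7 and 16.8 FPKM. In both genes the groups overlapped.

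MRPS36, the 2-oxoglutarate dehydrogenase subunit, was at 22.3 and 23.0 FPKM in the controls and 21.6 and 20.6 FPKM after the knockdown, with a log2 change of -0.10 and no call. MRPS28 was at 5.03 and 4.78 FPKM and then at 4.43 and 5.49 FPKM, with overlapping groups. The other uncalled members were MRPL1, MRPL2, MRPL3, MRPL18, MRPL20, MRPL23, MRPL33, MRPL46, MRPL51, MRPL52, MRPL54, MRPS10 and MRPS11, with log2 changes from -0.36 for MRPS11 to 0.24 for MRPL54. A missed threshold does not show that their levels were the same.

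The members of lowest level lie near the filter. MRPS24, homolog of S3, was at 0.0946, 0.0519, 0.0478 and 0.152 FPKM in sh-NC replicates 1 and 2 and sh-LDB1 replicates 1 and 2, and was not tested. MRPL53 was at 0.644 and 0.353 FPKM in the controls and 1.63 and 1.03 FPKM after the knockdown, and was not tested either. MRPL46 was just above the filter, at 1.11 and 0.854 FPKM and then 0.961 and 1.12 FPKM, with overlapping groups. Each of the 3 shares exon bases with another gene of its strand, 23.2% for MRPS24 with the readthrough gene URGCP-MRPS24, 72.8% for MRPL53 with CCDC142, and 11.3% for MRPL46. Reads that fall on shared bases can be left out by a counter, so these low levels are uncertain.

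**Figure D3:**
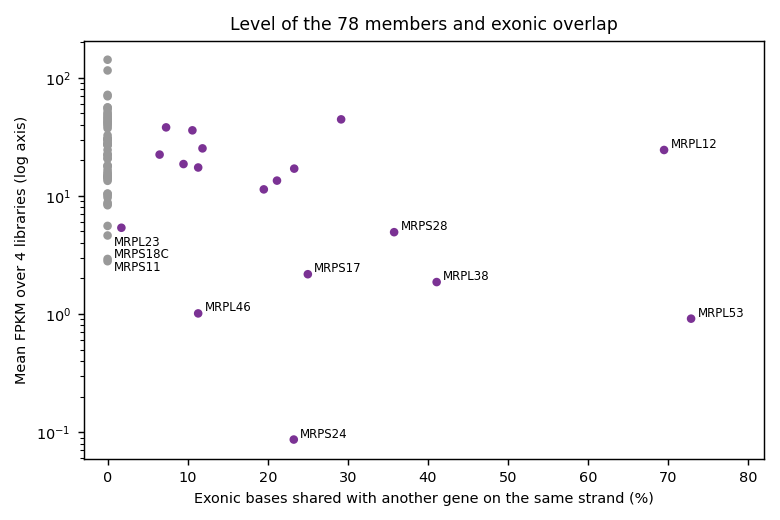
The mean FPKM over the 4 libraries (log axis) of each of the 78 members is plotted against the percent of its annotated exon bases that it shares with another gene of the same strand. Purple points are the 18 members with such an overlap and grey points the others, and the members of lowest level, MRPS24, MRPL53, MRPL46, MRPL38 and MRPS17, all share between 11.3% and 72.8%. Members of higher level share bases too, as do MRPL12 (69.5%, mean of 24.5 FPKM) and MRPL2 (29.2%, mean of 44.5 FPKM).

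Overlaps were frequent, with 41 of 78 members sharing annotated exon bases with a gene on either strand. Of the 37 members with no such overlap, 26 were lower and 4 higher, with a median log2 fold change of -0.47, and of the 39 tested members with one, 24 were lower and 4 higher, with a median of -0.37. Within the 37, the medians were -0.51 for 12 small subunit members and -0.46 for 25 large subunit members, by symbol. The medians of the subunits were closer to each other in this subset than over all members, whereas their summed levels, at 69.9% and 82.8% of control, were further apart than over all members. In some pairs the partner on the opposite strand rose, as COPB2 did beside MRPS22 (24.8 and 24.3 FPKM in the controls, 71.7 and 70.0 FPKM after the knockdown) and SYVN1 beside MRPL49 (14.1 and 15.2 FPKM, then 52.0 and 52.7 FPKM). COPB2 covers 38.9% of the exon bases of MRPS22, which itself was at 14.4 and 14.3 FPKM and then at 12.5 and 12.5 FPKM, a call that was lost when any 1 library was left out (-0.18 in each case) and at equal sums (-0.02).

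Some members share a promoter region with a protein-coding gene on the other strand. Such a neighbour, with a start within 1000 bases, was found for 19 members, and both genes were tested in 17 pairs. Over these 17 pairs the member was lower in 10 and the neighbour in 9, beside 37.4% of all genes tested. A link between member and neighbour was not tested. Both were lower in 6 pairs, and whether this is more than the separate counts would give was not tested. The pairs were MRPL13 with MTBP, MRPL21 with IGHMBP2, MRPL27 with EME1, MRPL57 with SKA3, MRPL47 with NDUFB5 and MRPL36 with NDUFS6. NDUFB5 and NDUFS6 encode subunits of respiratory complex I. The call of NDUFS6 was lost without sh-LDB1 replicate 1 or 2 (-0.89 and -0.90), and that of MRPL27 under at least 1 setting. In 3 pairs the calls were opposite, since MRPL43 was higher beside a lower TWNK, MRPL49 was higher beside a lower FAU (-0.21, a call lost at equal sums, at -0.041, and without sh-LDB1 replicate 1 or 2, at -0.22 and -0.21), and MRPL30 was lower beside a higher MITD1. In the other 8 pairs at least 1 gene had no call. MRPL46 and MRPS11 stand head to head, are counted from both sides, and had no call.

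The promoter windows of 300 bases, 250 before and 50 after the start, were searched for the letters of 5 motifs. The ETS letters were found in 29 of 69 members (42.0%), beside 21.4% of 8399 tested genes with a window and 10.7% of all 27305 windows. The YY1 letters were found in 20 members (29%), beside 6.10% and 3.03%. NRF1 was matched in 8 members (11.6%), beside 13.1% and 6.28%, and the E-box CACGTG that MYC can bind in 6 members (8.70%), beside 10.7% and 7.43%. The GATA letters AGATAA were in 2 members (2.90%), beside 4.66% and 10.5%. ETS, YY1 or NRF1 letters were in 45 members, 65.2% of those with a window, and in 35.3% of tested genes.

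**Figure D4:**
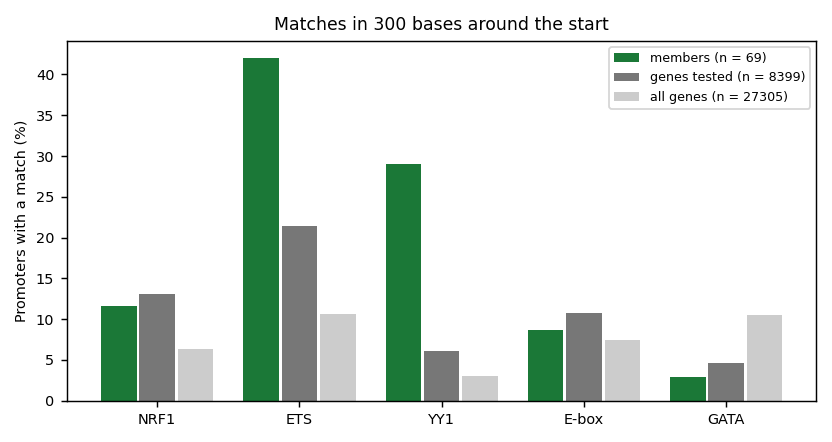
The percent of promoter windows that hold a match on either strand is plotted for each of the 5 motifs, in 69 members (green), 8399 tested genes (dark grey) and all 27305 genes with a window (light grey). The ETS and YY1 bars of the members, at 42.0% and 29%, stand above both others, and the NRF1, E-box and GATA bars do not stand above those of the tested genes.

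The changes of members with and without each motif were set side by side. The median log2 fold change was -0.54 for 19 tested members with the YY1 letters and -0.43 for 48 without. With the ETS letters it was -0.24 over 28 members, of which 17 were lower and 3 higher, and without them it was -0.55 over 39 members, of which 29 were lower. With the NRF1 letters it was -0.53 over 8 members and without them -0.43. The E-box gave -0.45 over 6 members and -0.44 over 61 without. The GATA letters gave -0.78 over only 2 members, both lower, and -0.43 over 65 without, of which 44 were lower. These are descriptions over genes, and a match is not a site of binding.

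The YY1 letters often lay over the start codon. In 15 members a match on the strand of the gene began 6 to 35 bases after the transcription start, and in 12 of the 20 members with a match its ATG was the annotated start codon. The start codon itself lay within the window in 37 of 69 members (53.6%) but in 17.4% of tested genes. Among genes with the start codon in the window, 32.4% of members and 14.7% of 1459 tested genes had the YY1 letters on it. For 5 of the 12 members the match is shown with the bases around it, so that the shared stretch can be seen. Capitals mark the YY1 letters, and the ATG in them is the start codon (GRCh38.p14, strand of the gene).
MRPS18B (chr6:30617852-30617881, plus strand): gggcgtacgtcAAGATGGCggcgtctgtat
MRPS18A (chr6:43687764-43687793, minus strand): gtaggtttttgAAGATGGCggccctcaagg
MRPL50 (chr9:101398577-101398606, minus strand): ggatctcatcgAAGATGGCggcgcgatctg
MRPS7 (chr17:75261887-75261916, plus strand): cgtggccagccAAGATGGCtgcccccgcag
MRPL38 (chr17:75904860-75904889, minus strand): aggccggagggAAGATGGCggcgccctggt
The same letters stood at the start of genes that moved differently, since MRPL50 and MRPS18B were lower, MRPS7 was lower (38.1 and 38.1 FPKM in the controls, 22.8 and 24.2 FPKM after the knockdown), MRPL38 was higher and MRPS18A had no call.

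To place the members in their pathway, the other genes of mitochondrial gene expression were examined. Mitochondrial ribosomal proteins with other symbols gave 3 lower and 1 higher of 5. PTCD3, a small subunit protein with pentatricopeptide repeats, was at 16.4 and 17.8 FPKM in the controls and 5.80 and 5.24 FPKM after the knockdown (log2 fold change -1.47). DAP3, a GTP-binding small subunit protein, was at 55.2 and 53.9 FPKM and then at 26.8 and 27.4 FPKM (-0.98). AURKAIP1 was higher (0.49), and CHCHD1 had no call.

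Of 17 translation factors, 13 were lower and 1 higher, with a median of -0.55. LRPPRC, which stabilises mitochondrial mRNAs, had a log2 fold change of -1.35, its partner SLIRP of -1.06, and the elongation factor TUFM of -0.95. The initiation factor MTIF3 was the higher one (0.44). At equal sums 10 factors were lower and 3 higher. Of 31 genes for assembly and rRNA modification, 20 were lower and 2 higher, with a median of -0.46. Among these, 7 passed the fold threshold, led by C1QBP (117 and 124 FPKM in the controls, 35 and 35.4 FPKM after the knockdown, log2 fold change -1.75). At equal sums 17 were lower and 6 higher. SPG7, a protease that forms a complex with AFG3L2, was higher (0.82), whereas AFG3L2 itself was lower (-1.61).

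Of 12 genes for mitochondrial transcription and genome maintenance, 8 were lower and 2 higher, with a median of -0.94. PNPT1, an RNA-degrading enzyme, fell by 1.66 on the log2 scale, and TFAM, which packs mitochondrial DNA, by 0.85. POLG, the catalytic subunit of the DNA polymerase, was higher (0.31), and its accessory subunit POLG2 was lower (-1.34). Of 20 mitochondrial aminoacyl-tRNA synthetases, 12 were lower and 1 higher, with a median of -0.41, and at equal sums 10 were lower and 3 higher.

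The RNAs that the ribosome carries and reads are made in mitochondria. Of 13 mRNAs encoded by mitochondrial DNA, 11 were lower and none was higher by the limma test, with a median of -0.88. The small subunit rRNA MT-RNR1 was at 1279.7 and 1421.8 FPKM in the controls and 1742.1 and 1649.3 FPKM after the knockdown (log2 fold change 0.33, limma adjusted p = 0.016). The large subunit rRNA MT-RNR2 was at 5323.6 and 5995.9 FPKM and then at 4493.5 and 4284.6 FPKM (-0.36, limma adjusted p = 0.019). The log2 fold changes of the rRNAs had opposite signs. Both calls were lost without sh-LDB1 replicate 1 (0.29 for MT-RNR1 and -0.40 for MT-RNR2) and without sh-LDB1 replicate 2 (0.37 and -0.33). Both were also lost with no filter, and that of MT-RNR2 at equal sums (-0.19) and with the median of ratios (-0.24).

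The proteins that mitochondrial translation serves, the respiratory chain and ATP synthase subunits encoded in the nucleus, gave 53 lower and 2 higher of 74, with a median of -0.39. Cytosolic ribosomal proteins gave 74 lower and 0 higher of 82, with a median of -0.63. None of these cytosolic genes, nor of the mRNAs from mitochondrial DNA, was higher at an unadjusted p below 0.05 by limma or by voom on the recovered reads (0 genes in each case). A lower level was thus measured in genes for both kinds of ribosome. At equal summed FPKM the counts were 37 lower and 8 higher for the respiratory chain and 63 and 0 for the cytosolic ribosome.

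**Figure D5:**
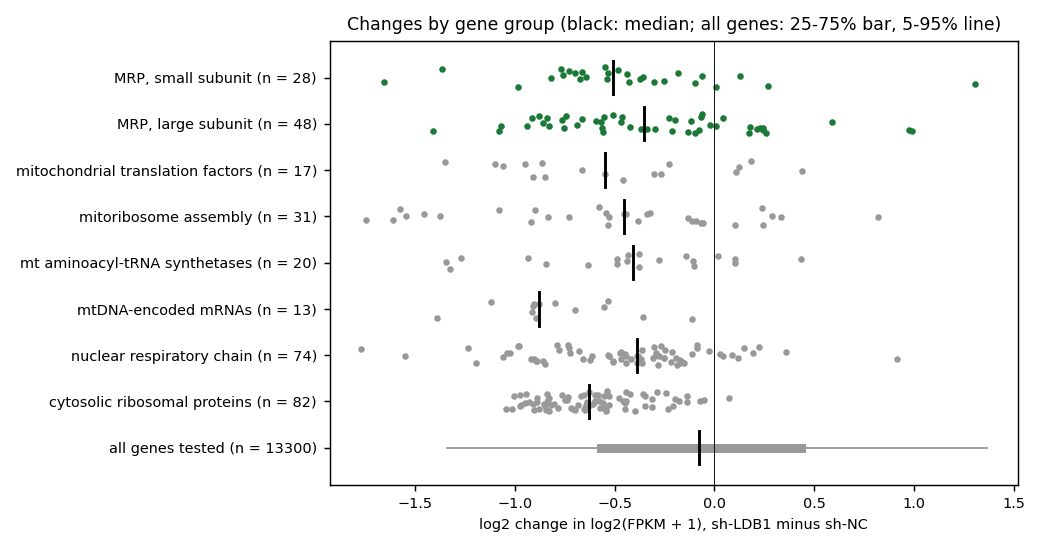
The log2 change in log2(FPKM + 1), sh-LDB1 minus sh-NC, is plotted for each tested gene of 8 groups (points) with the group's median (black bar), and for all 13300 genes as quartiles (grey bar), the 5% to 95% range (line) and the median. The medians run from -0.35 in the large subunit to -0.88 in the mRNAs of mitochondrial DNA, all left of the median of all genes at -0.08.

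Regulators of nuclear genes for mitochondrial proteins moved in both directions, with 6 lower and 3 higher of 10, and 4 lower and 4 higher at equal sums. MYC, a transcription factor that acts on ribosomal protein genes of both kinds, was at 159.1 and 160.9 FPKM in the controls and 27.3 and 28.1 FPKM after the knockdown (log2 fold change -2.49). NRF1 was lower (-0.42), a call that was lost at equal sums (-0.28) and without sh-LDB1 replicate 1 (-0.42) or replicate 2 (-0.43). GABPB1 was lower too (-0.86), and its partner GABPA had no call (0.26) but was called higher at equal sums (0.42). YY1 (0.39) and the nuclear receptor ESRRA (0.44) were higher. LDB1 itself was at 135.1 and 120.1 FPKM and then at 10.2 and 9.47 FPKM, 7.73% of control. Whether any of these had a part in the changes of the members was not tested.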

How the data were processed

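Total RNA was made into Illumina TruSeq libraries in the study, and reads were mapped to hg38 with HISAT2 2.0.5 per the submitters' processing notes. The authors deposited 1 table of FPKM per gene and library. The counting tool, annotation and use of strand were not given in the sources used here. For their own calls the authors ran DESeq2. The table had 0 columns of unmapped samples.

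Genes averaging 1 FPKM or more were tested on log2(FPKM + 1) with limma 3.58.1 (R 4.3.3, eBayes with trend, no block), with Benjamini-Hochberg adjustment over 13300 genes and thresholds of 0.05 for adjusted p and of 2 and 0.5 for fold. The added 1 FPKM understates changes of low genes. The fit was also run on simulated data with fewer changed genes than here and larger changes than those of most members. That run cannot give the error rate of the calls made here.

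Depth was read from the steps of the FPKM values, which came out as whole reads (tolerance 0.02) for 99.99% of values. This gave at least 13044367 to 15252838 reads per library, a lower bound where the reads of a gene share a factor, and at least 14 reads in every library for each tested member. Exon overlaps were taken from GENCODE release 44 and promoters from RefSeq (GRCh38.p14, first listed start). Summaries used Python 3.11.15, pandas 2.3.3 and numpy 2.4.6, and figures matplotlib 3.10.9.

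The members and lists were chosen with earlier results of these data known. Named members were, in each subunit, the 4 lowest and 4 highest changes and the 3 highest levels, all past the fold threshold, the MRPS18 paralogs, 11 members with a role set by hand, and the 4 levels nearest the filter. Members named for their overlaps or neighbours (MRPS22, MRPL30, MRPL36, MRPL43, MRPL49, MRPS7) and the uncalled ones were added after their values were seen. Alternatives were pseudocount, filter, scaling, variance prior, voom on recovered reads, limma treat, subunit assignment, a replicate block and leaving out each library.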

Additional observations from a re-analysis of the deposited data

How the results depend on the processing

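The counts of members moved most under limma treat, which tests for a change beyond a fold of 2 and called 3 members lower and 1 higher. The other settings test for a change from 0. With 8 members higher in the deposited scaling, 5 were higher with no filter, 5 with eBayes without a trend, 13 at equal summed FPKM and 12 with the median of ratios, and 4 to 10 when each library was left out in turn, with 4 without sh-NC replicate 2, sh-LDB1 replicate 1 or sh-LDB1 replicate 2. Members lower numbered 40 to 51 over the settings other than limma treat, and 41 to 48 with a library left out. Past the fold threshold, 5 members were lower in the deposited scaling and 8 were lower with a pseudocount of 0.1, 8 with 0.01, 8 with voom on recovered reads, 3 at equal sums, 3 with the median of ratios and 3 with limma treat, and 5 to 7 with a library left out. Of members higher by that threshold, 1 became 3 with a pseudocount of 0.1, 3 with 0.01, 3 at equal sums, 3 with the median of ratios and 2 with voom, and 1 to 3 with a library left out, with 3 without sh-NC replicate 1 and 2 without either sh-LDB1 replicate.

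The median log2 fold change of all members, -0.43, was -0.48 with a pseudocount of 0.01, -0.48 with voom, -0.27 at equal sums and -0.32 with the median of ratios, and -0.46 to -0.42 with a library left out. With the subunits taken by symbol, it was -0.34 and -0.39 for the small subunit under the 2 scalings. For the large subunit it was -0.20 and -0.25 under them, -0.42 with a minimum of 5 FPKM, and -0.46 over members with no exonic overlap, a setting chosen after seeing the data.

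Sign changed only in members without a call. MRPL41 was at 0.10 at equal sums, at 0.054 with the median of ratios, and between -0.21 and 0.070 with a library left out, the highest without sh-NC replicate 1. MRPL44 was at 0.14, at 0.10, and between -0.11 and 0.069, the highest without sh-LDB1 replicate 1. MRPS36 was at 0.067 and 0.022 under the 2 scalings, and MRPS28 was at -0.12 without sh-LDB1 replicate 2. The cause was not tested beyond the scalings' own construction. Of 50 members called lower, 40 were called under every setting other than limma treat in which they were tested, as were 3 of 8 called higher. The lower calls lost under at least 1 of these settings were MRPL12, MRPL14, MRPL22, MRPL27, MRPL34, MRPL40, MRPS18C, MRPS22, MRPS23 and MRPS31.

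Libraries with the same replicate number did not deviate together across genes (correlation 0.0196). This correlation cannot show whether libraries of the same number were prepared together. With the replicate block, 49 members were lower and 8 higher, 5 and 1 past the fold threshold, and MRPS22 lost its call.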
